A study of Mus musculus with 66 samples.

Results

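Molecular chaperones of the HSP, DNAJ and CCT families were followed by RNA sequencing in mouse female germ cells and oocytes. The set was made of every gene whose symbol starts with Hspa, Hspb, Hspd, Hspe, Hsph or Hsp90, with Dnaja, Dnajb or Dnajc and a digit, or with Cct2 to Cct8, pseudogenes left out, and whose mean reached 1 RPM (reads of a gene per 1000000 reads of the library, not divided by gene length) in at least 1 of 24 groups. Of 83 matching symbols 74 reached that level, out of 24062 genes in the table and 16540 genes at the same level. They were 8 CCT subunits, 4 DNAJA, 11 DNAJB and 27 DNAJC proteins, 12 of the HSP70 family, the HSP110 protein Hsph1, 3 of the HSP90 family, the 2 subunits of the mitochondrial chaperonin, 4 small heat shock proteins and the HSP-binding proteins Hspbap1 and Hspbp1. Dnajb13 lay just inside the threshold, with its highest group mean of 1.11 RPM at day 7 of culture, and Hspa1l lay just outside it at 0.810 RPM on the same day. The other 8 symbols left out were Hspb2, Hspb3, Hspb7, Hspb9, Dnajb7, Dnajb8, Dnajc22 and Cct8l1, which peaked at 0.603 RPM or less.

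The study concerned the dormant state of oocytes and the part that low oxygen and the transcription factor Foxo3 play in it. Cultured oocytes came from C57BL/6 X 129/SvJ embryonic stem cells turned into Blimp1-mVenus positive primordial germ cell-like cells, which were aggregated with E12.5 gonadal somatic cells into reconstituted ovaries and grown on Transwell-COL membranes (IVDi culture), with the Rock inhibitor Y-27632 during the first days. At day 21 the groups were Foxo3dNES transgenic (Tg) oocytes in hypoxia (5% O2), Tg oocytes in normoxia (air), wild type (WT) oocytes in hypoxia and WT oocytes in normoxia, with 2 libraries each, and 2 Tg and 2 WT libraries whose oxygen the labels do not give. Oocytes or germ cells of such cultures were sampled, in 3 libraries per day, on D5, D7 and D9, on D10, D11 and D13, and on D15, D17 and D20. Ovarian cells came from stella-ECFP(SC) reporter transgenic mice of strain C57BL/6 x B6D2F1, in 3 libraries per stage from E14.5, E16.5 and E18.5 and from P1 and P3, and at P4 as well as at P6 in 3 libraries of small oocytes and 3 of large ones. Cells up to E18.5 and D11 are labelled germ cells and the later ones oocytes. The promoter of the transgene, the number of stem cell clones and the number of cells or ovaries in a library are not given in the sources used here.

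Depth was 13888938 to 23188562 reads in vivo, 14675044 to 22807730 reads in the D5 to D20 course and 4843643 to 21261797 reads at D21, and 3 reads stood for 0.129 to 0.619 RPM. Germ cell and oocyte markers (11 listed, such as Ddx4, Dazl and Zp3) summed to 2383 RPM or more in every library, with Stra8, a gene of meiotic entry, at 0 in the D21 groups of no stated oxygen. Replicate libraries correlated with r of 0.985 or more on the log2 scale except for D5 replicate 2 (0.976 and 0.979 with the others), the 3 D11 libraries (0.969 to 0.979), and the WT D21 pairs in normoxia (0.983) and of no stated oxygen (0.982). RNA of other ovarian cells was high from D9 to D11: 9 stroma and theca markers summed to 260 to 465 RPM at D9, 746 to 1749 RPM at D10 and 193 to 1874 RPM at D11, and 12 granulosa markers to 331 to 535, 446 to 685 and 341 to 671 RPM on the same days. In these bulk libraries a lower share of a cell type and less RNA per cell cannot be told apart.

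HSP70 proteins bind exposed hydrophobic stretches of unfolded polypeptides in cycles of ATP hydrolysis. J proteins, the DNAJ families, deliver clients to HSP70 and switch on its ATPase, while HSP110 and HSPBP1 exchange its nucleotide. HSP90 acts later on kinases, receptors and other nearly folded clients, CCT is a ring of different subunits that folds actin, tubulin and other cytosolic proteins, and HSPD1 with its lid HSPE1 forms the chaperonin of the mitochondrial matrix. Heat shock factors raise the inducible cytosolic members through heat shock elements, and the unfolded protein response raises the chaperones of the endoplasmic reticulum (ER) through ER stress elements. Oocytes stockpile RNA and protein for the embryo during growth, and heat shock factor 1 is known to be needed for normal meiotic maturation of mouse oocytes.

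Promoter windows of 300 bases, from 250 before to 50 after the annotated start, were available in RefSeq (GRCm38.p6) for 61 of the 74 genes. A heat shock element, searched as GAANNTTCNNGAA or TTCNNGAANNTTC on both strands, stood in the windows of Hsph1, Dnajb6, Hspe1 and Hspd1. That is 6.56% of the 61, against 0.662% of all 27025 genes with a window. Among the heat-inducible genes, Hspa1a, Hspa1b, Dnajb1, Dnaja1 and Hspb1 had windows without a match, and Hsp90aa1, Hsp90ab1 and Hspa8 had no window. The search covered these exact patterns within the windows alone, so it does not show that a gene lacks such an element. An ER stress element, searched as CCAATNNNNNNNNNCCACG or its reverse complement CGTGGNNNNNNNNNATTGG, stood in the windows of Hspa5, Hsp90b1 and Dnajc3, which is 4.92% of the 61 against 0.137% of all genes. A match is a stretch of letters and not a measured binding site. The windows are shown because the genes that share an element took the same course in some of the comparisons and opposite courses in others. Capitals mark the units of the element, each window is written 5′ to 3′ in the direction of the gene, and the Hspe1 window holds the element that Hspd1 shares on the other strand.
Hsph1, chr5:149636266-149636565, minus strand: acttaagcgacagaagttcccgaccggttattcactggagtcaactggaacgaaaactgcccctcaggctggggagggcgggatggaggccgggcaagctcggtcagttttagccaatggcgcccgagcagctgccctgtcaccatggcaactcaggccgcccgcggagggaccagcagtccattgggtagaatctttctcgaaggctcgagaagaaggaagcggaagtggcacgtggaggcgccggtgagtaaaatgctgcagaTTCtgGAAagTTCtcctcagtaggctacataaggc
Dnajb6, chr5:29735648-29735947, plus strand: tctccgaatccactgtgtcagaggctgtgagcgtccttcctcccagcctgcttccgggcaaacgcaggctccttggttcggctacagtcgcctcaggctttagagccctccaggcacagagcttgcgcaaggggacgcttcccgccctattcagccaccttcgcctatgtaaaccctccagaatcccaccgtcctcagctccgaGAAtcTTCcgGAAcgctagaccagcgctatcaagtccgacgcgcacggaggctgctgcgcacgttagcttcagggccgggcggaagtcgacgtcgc
Hspe1, chr1:55087898-55088197, plus strand: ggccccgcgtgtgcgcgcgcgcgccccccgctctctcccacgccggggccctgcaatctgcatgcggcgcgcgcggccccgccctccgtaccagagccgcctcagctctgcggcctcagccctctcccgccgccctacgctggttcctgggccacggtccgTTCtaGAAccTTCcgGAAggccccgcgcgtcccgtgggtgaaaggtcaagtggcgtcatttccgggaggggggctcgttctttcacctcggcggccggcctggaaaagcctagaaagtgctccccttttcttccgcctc
Hspa5, chr2:34771840-34772139, plus strand: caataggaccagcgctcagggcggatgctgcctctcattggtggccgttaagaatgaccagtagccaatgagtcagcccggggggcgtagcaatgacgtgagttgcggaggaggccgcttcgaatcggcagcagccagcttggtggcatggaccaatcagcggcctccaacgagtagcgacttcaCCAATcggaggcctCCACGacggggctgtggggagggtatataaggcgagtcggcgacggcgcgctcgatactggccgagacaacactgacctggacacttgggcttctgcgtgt
Hsp90b1, chr10:86705395-86705694, minus strand: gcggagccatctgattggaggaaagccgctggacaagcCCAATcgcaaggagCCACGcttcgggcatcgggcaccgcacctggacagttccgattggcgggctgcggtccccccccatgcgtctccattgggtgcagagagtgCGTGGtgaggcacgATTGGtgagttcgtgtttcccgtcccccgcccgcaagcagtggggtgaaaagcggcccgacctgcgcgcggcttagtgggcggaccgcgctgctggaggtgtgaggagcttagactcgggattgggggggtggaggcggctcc
Dnajc3, chr14:118937682-118937981, plus strand: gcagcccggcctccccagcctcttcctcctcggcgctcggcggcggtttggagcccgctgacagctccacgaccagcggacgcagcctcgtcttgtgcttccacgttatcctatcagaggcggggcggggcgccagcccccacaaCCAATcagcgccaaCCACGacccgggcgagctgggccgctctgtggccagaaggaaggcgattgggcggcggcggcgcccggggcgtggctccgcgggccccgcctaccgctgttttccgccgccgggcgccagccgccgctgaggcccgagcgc

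Chaperone RNA was abundant at every stage and was carried by a few genes. The 74 genes together held 25746 RPM at E14.5, the highest group mean, and 15863 RPM in Tg oocytes in hypoxia, the lowest. Divided by the annotated exon length, the highest mean levels over the 24 groups were those of Hsp90aa1, the inducible cytosolic HSP90, at 891 RPM per kb, Hsp90ab1, the constitutive one, at 821 RPM per kb, and Hspa8, the constitutive cytosolic HSP70, at 598 RPM per kb. The ER form Hsp90b1 followed at 283 RPM per kb, then Cct2 at 244, Hspd1 at 239 and the ER HSP70 Hspa5 (BiP) at 187 RPM per kb. The cytosolic HSP90 pair and Hspa8 thus stood above every organelle chaperone on this scale.

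Of the 74 genes 62 stayed at 1 RPM or more in all 24 groups, and among these the highest group mean exceeded the lowest by a median of 3.97-fold. The steadiest were Dnajc14, an ER membrane J protein (1.55-fold), and Dnaja2, a general cytosolic HSP70 partner (1.67-fold), with Dnajc7, Hspa9 and Cct5 also below 2-fold. The widest range belonged to Hspb11, the intraflagellar transport protein IFT25 (31.5-fold), Dnajc15, a J protein of the mitochondrial inner membrane (22.4-fold), Dnajc5g (15.8-fold) and Dnajb4 (11.6-fold). The stages with the most peaks were early ones: 11 of the 74 genes had their highest group mean at E14.5, 10 at E16.5, 9 at D5 and 7 at E18.5. The D5 peak of Hspe1 was a mean of 361 RPM with an SD of 193 RPM. Peaks were not counted over all genes, so these counts cannot be read as a trait of the chaperones.

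**Figure D1:**
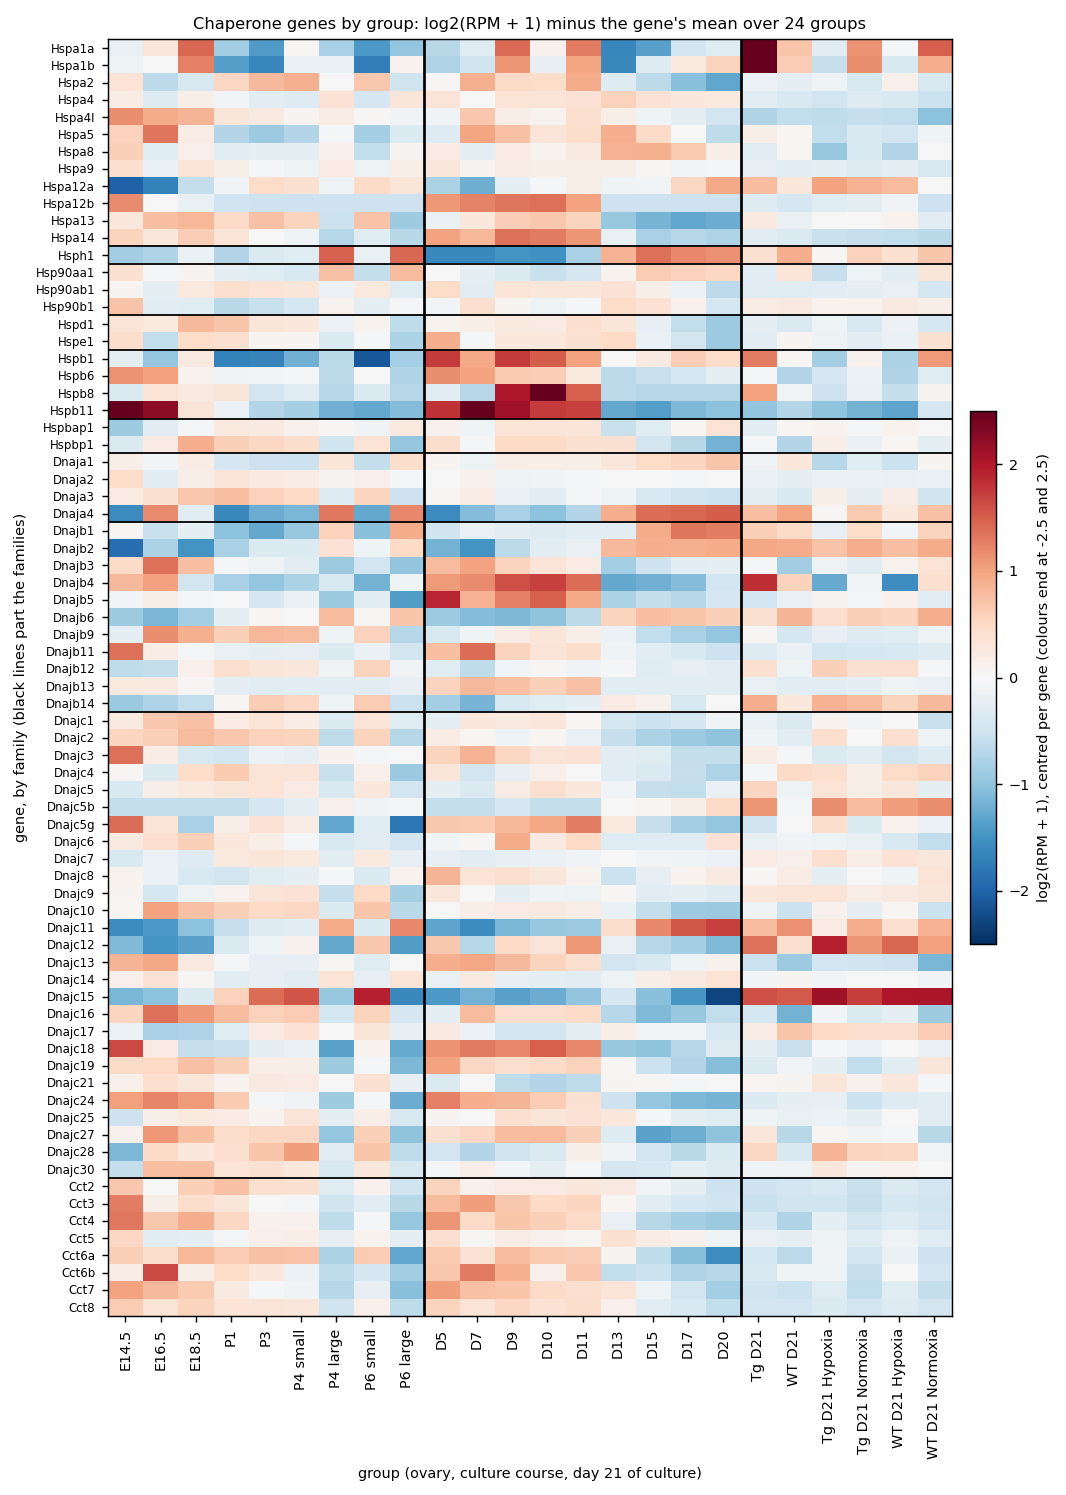
Level of each chaperone gene (a line of cells per gene, by family) in each of the 24 groups (across), as log2(RPM + 1) of the group mean minus the gene's mean over the groups, red above and blue below. Hspb11 is deep red at E14.5, E16.5 and D5 to D11, Dnajc15 is red in the small oocytes and in all D21 groups, and Hsph1, Dnaja4 and Dnajc11 are red in the P4 and P6 large oocytes and from D15 to D20.

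Small and large oocytes of P6 ovaries were compared first, since they separate oocytes that have stayed small from those that have grown. Several heat-inducible cytosolic chaperones had less RNA in small oocytes, while most DNAJC genes and most CCT subunits took a larger share of the library. Of 72 chaperone genes tested, 42 were higher and 18 lower in small oocytes (limma on log2(RPM + 1), Benjamini-Hochberg adjusted p under 0.05 over all genes). Of all 15401 genes tested, 73.4% passed the same test, 51.3% as higher and 22.1% as lower, so the split of the chaperones as a whole lay near that of the table. The median log2 change was 0.52 over the chaperones and 0.41 over all genes. Rescaling the libraries by median-of-ratios size factors took the median of all genes to 0.0026 and the split of the chaperones to 22 higher and 26 lower, beside 34.3% and 36.2% of all genes. Stroma and theca markers summed to 7.71 to 30.0 RPM in small and 1.44 to 1.87 RPM in large oocytes, with Tcf21 at 0 in both, and granulosa markers to 11.8 to 16.8 RPM in small and 20.3 to 25.3 RPM in large oocytes. The higher granulosa sum of large oocytes came mainly from Gata4, which averaged 14.7 RPM there, against 0.942 RPM at the small size. Fshr and Cyp19a1 also had more RNA at the large size. Every other listed granulosa marker, such as Amhr2, had more at the small size. The part of the stroma and granulosa markers in the results was not tested.

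The cytosolic HSP90 pair moved in opposite ways on the RPM scale. Hsp90aa1 had 2221, 2299 and 2156 RPM in small oocytes, against 5710, 5623 and 5992 RPM in large ones. No small library came near a large one, and the log2 change was -1.38 (SE 0.10, adjusted p = 6.7e-12 by limma). Hsp90ab1 had 2866, 2923 and 2723 RPM in small oocytes, against 2051, 1995 and 1811 RPM in large ones, a log2 change of 0.54 (SE 0.092, adjusted p = 9.3e-06) that became -0.07 after rescaling and was then not called. The ratio of the pair within a library does not depend on scaling: Hsp90aa1 over Hsp90ab1 was 0.775 to 0.792 in small oocytes and 2.78 to 3.31 in large ones. Per kb of exon, Hsp90ab1 stood first in small oocytes at 946 RPM per kb against 566 for Hsp90aa1, and in large oocytes it stood at 651 against 1469 for Hsp90aa1. Hsp90b1, the ER form, had a log2 change of -0.21 (adjusted p = 0.061).

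Among the HSP70 family and its exchange factors, small oocytes had 5 of 12 HSP70 genes lower and 3 higher, or 6 and 2 after rescaling. Hsph1, the HSP110 that exchanges HSP70 nucleotide, had 382, 406 and 346 RPM in small oocytes, against 1143, 1162 and 1208 RPM in large ones. The libraries of the groups lay far apart, and the log2 change was -1.63 (SE 0.092, adjusted p = 3.3e-14 by limma). Its relative Hspa4 was lower too, at 377, 378 and 373 RPM in small against 626, 616 and 623 RPM in large oocytes, but by less, with a log2 change of -0.72, so that the Hsph1 over Hspa4 ratio was 0.928 to 1.07 in small and 1.83 to 1.94 in large oocytes. Hspa8 had 1633, 1714 and 1471 RPM in small and 2660, 2587 and 2467 RPM in large oocytes, with a log2 change of -0.68. The ER member Hspa5 (-0.49) and the mitochondrial member Hspa9 (-0.28) were also lower. Higher in small oocytes were Hspa13, a microsomal HSP70 relative, at 60.0, 52.4 and 57.5 against 17.4, 18.4 and 17.7 RPM, the germline form Hspa2, at 48.2, 42.1 and 38.2 against 16.6, 20.1 and 19.1 RPM, and Hspa14, a partner of HSP70 at the ribosome, whose sign turned after rescaling (-0.19). The stress-inducible Hspa1b had under 1 RPM in each small and 4.02 to 4.92 RPM in each large library. It is a near-identical copy of Hspa1a, so reads could be split between them and both values are uncertain.

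J proteins were found at both ends of the list. Dnaja4, a cytosolic partner of HSP70, had 22.4, 20.9 and 21.3 RPM in small oocytes, against 115, 124 and 131 RPM in large ones, with a log2 change of -2.46 (SE 0.11, adjusted p = 2.4e-16 by limma). Of its exon bases 44.05% overlap Wdr61 on the other strand, and Wdr61 went the opposite way, at 58.3 to 60.9 RPM in small and 22.2 to 29.8 RPM in large oocytes. Dnajb1, the heat-inducible partner of HSP70, had 64.1, 62.4 and 62.7 RPM in small oocytes, against 253, 260 and 237 RPM in large ones, a log2 change of -1.97 (SE 0.14). Dnajc11, a protein of the mitochondrial cristae junction machinery, had 154, 155 and 151 RPM in small and 423, 450 and 477 RPM in large oocytes, with a log2 change of -1.55. Dnaja1 (-1.03), Dnajb6, which holds back protein aggregation (-0.68), and Dnajb4 (-1.07) were lower as well. All of these kept their sign and their call after rescaling, and in each the libraries of the groups did not overlap. For Dnajc11 the lack of overlap was a condition for being named.

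Dnajc15 had the steepest difference of the whole set, in the other direction. It had 331, 311 and 377 RPM in small oocytes, against 29.3, 29.8 and 25.8 RPM in large ones, a log2 change of 3.54 (SE 0.17, adjusted p = 1.2e-15 by limma) that was 2.94 after rescaling. Dnajc27, a Rab-like GTPase with a J domain, had 20.9, 20.3 and 17.1 RPM in small against 5.97, 5.66 and 5.57 RPM in large oocytes. Further DNAJC genes higher in small oocytes were Dnajc10, an ER disulfide reductase (1.37), and Dnajc19, of the mitochondrial import motor (1.07), and among the other families the ER protein Dnajb9 (1.29) and the mitochondrial Dnaja3 (1.05). In all, 20 of 26 DNAJC genes were higher and 4 lower, and 13 and 6 after rescaling.

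CCT subunits stood higher in small oocytes in 7 of 8 cases and lower in none, but after rescaling only Cct4 and Cct6a were higher and Cct5 was lower. Cct6a had 479, 500 and 481 RPM in small oocytes, against 135, 126 and 119 RPM in large ones, a log2 change of 1.93 (SE 0.070, adjusted p = 7.8e-18 by limma), and 1.32 after rescaling. Cct5 had 459, 429 and 438 RPM against 312, 359 and 375 RPM, a log2 change of 0.35. Since all subunits sit in the same ring, the ratio within a library shows how unevenly their RNAs changed: Cct6a over Cct5 was 1.04 to 1.17 in small and 0.316 to 0.435 in large oocytes. Cct6b, the testis-type form of Cct6a, was not called. Psph, which overlaps 15.3% of the Cct6a exon bases, stood at 2.49 to 3.81 RPM in small and 3.86 to 5.95 RPM in large oocytes. The mitochondrial chaperonin pair Hspd1 (0.73) and Hspe1 (0.77) was higher on the RPM scale, and after rescaling the log2 changes were 0.12 and 0.16, not called.

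**Figure D2:**
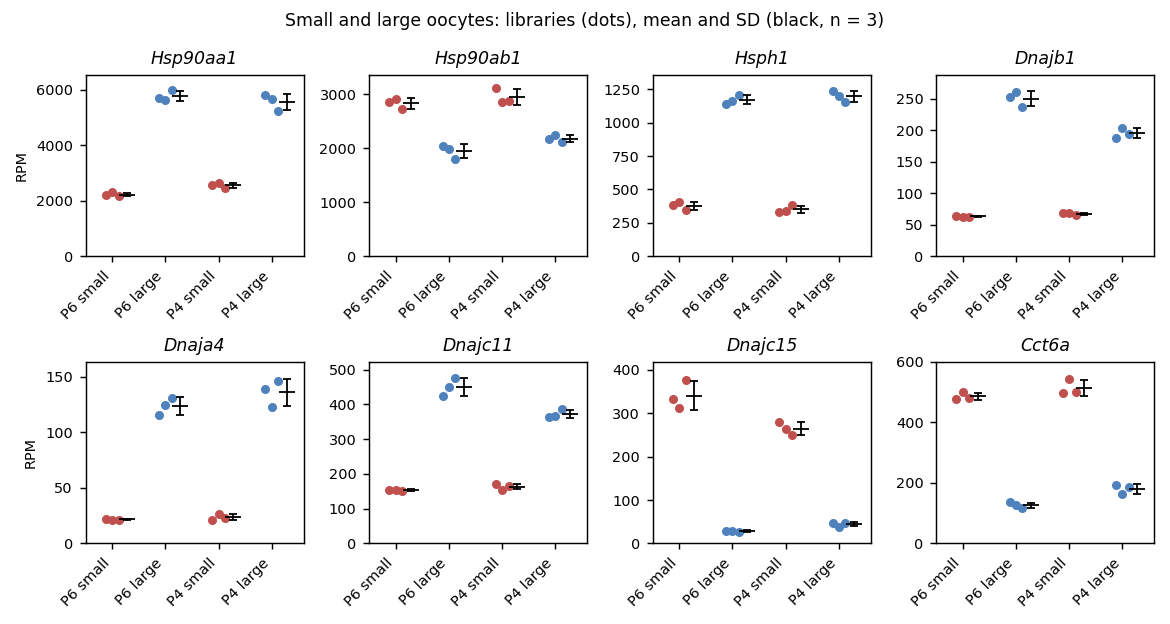
RPM of 8 chaperone genes in small (red) and large (blue) oocytes at P6 and P4, each dot a library, with the mean and SD in black (n = 3). The libraries of small and large oocytes do not overlap in any panel, which for Dnajc15 and Dnajc11 was a condition for being named. Hsp90aa1, Hsph1, Dnajb1, Dnaja4 and Dnajc11 are lower in small oocytes, and Hsp90ab1, Dnajc15 and Cct6a are higher on the RPM scale.

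Of the 4 genes whose windows hold a heat shock element, Hsph1 and Dnajb6 were lower in small oocytes and Hspd1 and Hspe1 were not. In a wider list of heat-shock inducible genes, members and others, 8 of 15 tested were lower and 4 higher at P6, with a median log2 change of -0.58 beside 0.41 for all genes. Of the heat shock factors and their binding protein 4 were tested, with 1 higher and 2 lower (median -0.22). Of 26 cochaperones of HSP70 and HSP90 outside the families 17 were higher and 6 lower (median 0.74), of 11 partners of CCT 7 and 2 (0.65), of 9 sensors and factors of the unfolded protein response 5 and 3 (0.85), and of 21 ER folding genes 10 and 8 (-0.0061). Of 15 mitochondrial chaperones 13 were higher (median 0.83), with Dnajc11 and Hspa9 the lower ones. After rescaling the heat-shock inducible list had 1 higher and 10 lower (median -1.18), the ER genes 4 and 13 (-0.61), the mitochondrial chaperones 7 and 3, the cochaperones 13 and 11, the CCT partners 2 and 5, the unfolded protein response factors 4 and 4, and the heat shock factors 1 and 3.

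P4 oocytes, from other libraries, gave similar counts. In small oocytes 42 of 72 genes were again higher and 18 lower. After rescaling these were 21 and 23, beside 31.1% and 33.2% of all genes. Before it, 69.2% of all genes passed, 48.7% as higher and 20.5% as lower, and the median of all genes was 0.34. Of the genes higher in small oocytes 40 were shared, 95.2% of each list, and of the lower ones 16, 88.9% of each list. No gene was called in opposite directions. The overlap of P6 and P4 was not counted over all genes, so these shares cannot be read as a trait of the chaperones. Hsp90aa1 had 2557, 2654 and 2469 RPM in small oocytes at P4, against 5804, 5679 and 5255 RPM in large ones, and its ratio to Hsp90ab1 was 0.821 to 0.928 in small and 2.48 to 2.67 in large oocytes. Dnajc15 had 280, 263 and 249 RPM in small oocytes, against 48.2, 38.8 and 48.0 RPM in large ones. The log2 changes at P4 were -2.47 for Dnaja4, -1.77 for Hsph1, -1.52 for Dnajb1, -1.19 for Dnajc11, 2.53 for Dnajc15, 1.505 for Cct6a, 1.49 for Dnajc27 and 1.31 for Dnajc28, all called by limma. Dnajc28 had only 9.13 to 11.9 RPM in small and 2.82 to 4.15 RPM in large oocytes. Hsp90b1 was called at P4 as lower in small oocytes (-0.53), and Hspa1b was not called, with libraries that overlapped.

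**Figure D3:**
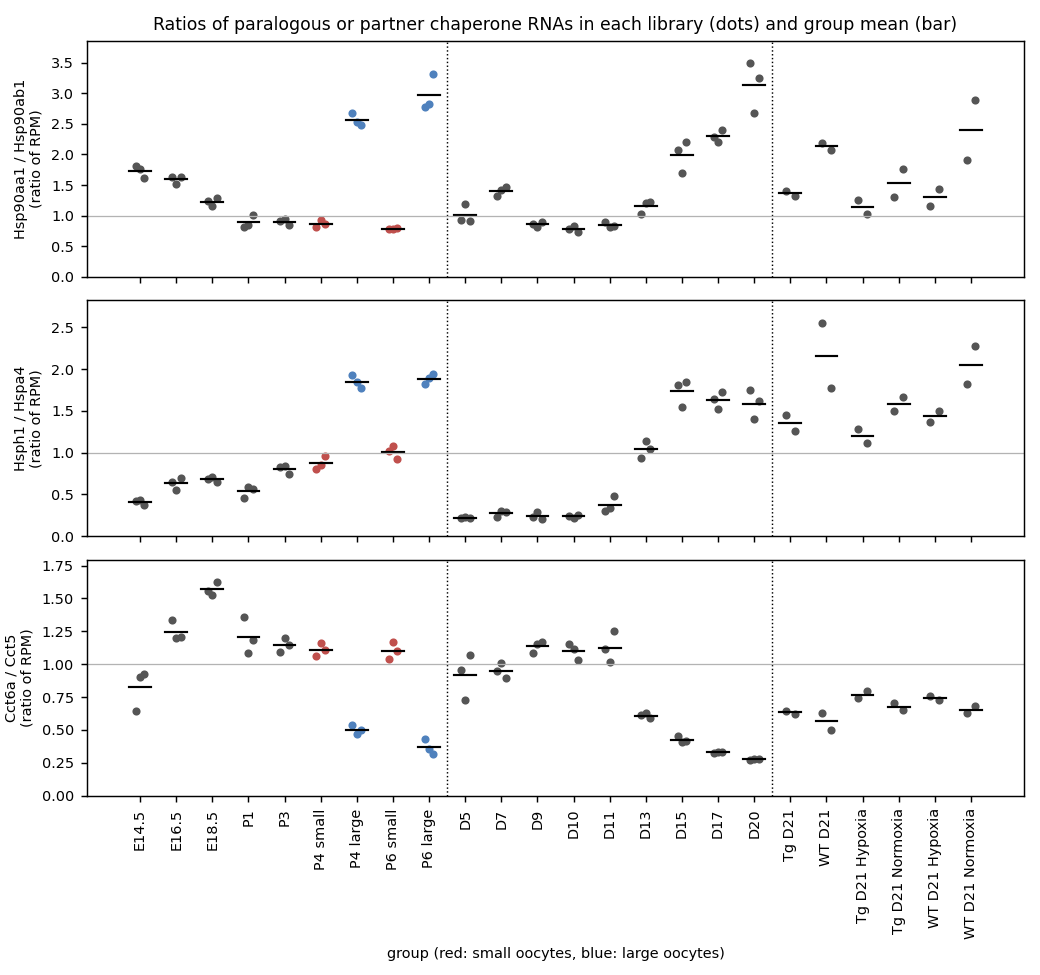
Ratio of RPM within each library (dots) and its group mean (bars) over the 24 groups, for Hsp90aa1 over Hsp90ab1, Hsph1 over Hspa4 and Cct6a over Cct5, with small oocytes in red and large oocytes in blue. In the ovary the first ratio is below 1 on average in P1, P3 and small oocytes and above 2 in large ones, and in culture it climbs between D11 and D20 while Cct6a over Cct5 goes down.

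Before birth, E18.5 germ cells were set against E14.5 germ cells, across the time when female germ cells go from entry into meiosis to its arrest. ER chaperones that carry an ER stress element were lower at E18.5, and several J proteins were higher. Of 72 genes tested 27 were higher and 22 lower, or 22 and 30 after rescaling (33.7% and 35.5% of all genes), where without it 70% of all genes passed, 40% as higher and 30% as lower, and the median log2 change was 0.061 over the chaperones. Dnajc3, an ER J protein that also inhibits the kinase PERK, had 55.3, 56.1 and 58.7 RPM at E18.5, against 213, 199 and 183 RPM at E14.5, a log2 change of -1.79 (SE 0.069, adjusted p = 4.2e-17 by limma). Hsp90b1 had 877, 893 and 933 RPM at E18.5, against 2014, 1820 and 1648 RPM at E14.5 (-1.01), and the BiP partner Dnajb11 had 167, 138 and 158 against 453, 437 and 355 RPM (-1.42). Hspa5 was called with a smaller change (-0.38, adjusted p = 0.012) and libraries that overlapped, at 772, 721 and 952 against 1365, 1042 and 827 RPM. Between them, at E16.5, Hspa5 stood at 1739, 1837 and 1873 RPM, above every library of both stages, whereas Dnajc3, Hsp90b1 and Dnajb11 did not peak there. The ER list as a whole had 11 of 21 genes higher and 9 lower, with a median log2 change of 0.40 beside 0.14 for all genes, and Dnajb9, another ER partner of BiP, was among the higher ones (1.15).

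The largest fall at E18.5 was that of Hspb11, at 10.997, 8.09 and 9.02 RPM, against 73.2, 54.9 and 31.4 RPM at E14.5 (-2.31, adjusted p = 9.7e-08 by limma). Dnajc18, an ER membrane J protein, was at 10.997, 11.9 and 14.6 against 68.2, 59.9 and 57.5 RPM (-2.23), and Dnajc5g, a relative of the vesicle protein Dnajc5, at 3.41, 2.51 and 4.72 against 24.3, 14.8 and 20.3 RPM (-2.20). Higher at E18.5 were Dnajc30, a mitochondrial J protein (1.36), the exchange factor Hspbp1 (1.28), Dnaja4 (1.32) and Hsph1 (0.69). Dnaja4 passed through a maximum in between, with 16.97, 19.5 and 14.8 RPM at E14.5, 127, 123 and 119 RPM at E16.5 and 43.6, 39.8 and 48.8 RPM at E18.5. CCT subunits were lower at E18.5 in 4 of 8 cases, with Cct3 at -0.83, and Cct6a alone was higher; after rescaling 6 were lower and none higher. The ratio of Hsp90aa1 to Hsp90ab1 averaged 1.73 at E14.5, 1.60 at E16.5, 1.23 at E18.5, 0.891 at P1 and 0.899 at P3. Of the other lists, heat-shock inducible genes had 5 of 15 higher and 5 lower, mitochondrial chaperones 9 of 15 higher and 1 lower, cochaperones 14 of 26 and 7, CCT partners 5 of 11 and 2, unfolded protein response factors 3 of 9 and 1, and heat shock factors 2 of 4 and 0. After rescaling the heat-shock inducible list had 4 higher and 6 lower, the ER list 9 and 9 and the unfolded protein response factors 2 and 3. Granulosa markers summed to 51.3 to 89.4 RPM at E18.5 and 31.0 to 38.6 RPM at E14.5, and stroma markers to 31.2 to 70.6 RPM at E18.5 and 7.16 to 10.4 RPM at E14.5, and their part was not tested.

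Around birth, P3 oocytes were set against E18.5 germ cells, when germ cell cysts break up and primordial follicles form. Of the heat-shock inducible genes 11 of 15 were lower at P3, as was the ER HSP70 Hspa5, while Dnajc15 was higher. Of 72 genes 14 were higher and 33 lower, or 14 and 28 after rescaling (27.5% and 29.4% of all genes), where without it 58.3% of all genes passed, 26% as higher and 32.3% as lower, and the median log2 change was -0.23 over the chaperones and -0.066 over all genes. This comparison shares its E18.5 libraries with the one before. No gene of the heat-shock inducible list was higher by limma (median -0.51), or by limma after rescaling, when 10 were lower, and 8 of 12 HSP70 genes were lower, or 7 after rescaling. Hspa1b had 0.384, 1.22 and 0.280 RPM at P3, against 3.71, 16.0 and 13.6 RPM at E18.5 (-2.74, adjusted p = 1.4e-06), and its copy Hspa1a changed by -2.73. E18.5 replicate 1 lay far below its 2 partners for both. Hspa5 had 431, 388 and 329 RPM at P3, against 772, 721 and 952 RPM at E18.5 (-1.09), and Dnajb1 had 57.9, 53.9 and 49.7 against 91.2, 133 and 114 RPM (-1.04). Dnajc24, of diphthamide synthesis, was lower by a log2 change of -1.10, and the small heat shock protein Hspb1 by -1.87.

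Dnajc15 had 222, 232 and 245 RPM at P3, against 68.7, 85.0 and 52.8 RPM at E18.5, a log2 change of 1.77 (SE 0.17, adjusted p = 3.5e-09 by limma). Its group mean was higher at each later stage from E16.5 to P3, and at P4 and P6 it stayed high in small oocytes alone. Hspa2 had 46.2, 47.0 and 48.2 RPM at P3, against 17.7, 18.6 and 23.2 RPM at E18.5 (1.22). Dnajb14, an ER membrane J protein (1.26), Dnajb2, a neuronal J protein in the brain (1.14), and Dnajb6 (0.89) were also higher. Both chaperonin genes were lower, and so were 4 of 8 CCT subunits, with Cct5 higher. Of the ER list 2 of 21 were higher, Dnajc3 (0.27) among them, and 12 lower (2 and 9 after rescaling). Of the mitochondrial list 6 of 15 were higher and 5 lower, and of the cochaperones 5 of 26 and 11. The CCT partners had 4 of 11 and 3, the unfolded protein response factors 6 of 9 and 1, and the heat shock factors 1 of 4 and 2. Granulosa markers summed to 12.1 to 33.5 RPM at P3 and 51.3 to 89.4 RPM at E18.5, and stroma markers to 8.47 to 21.7 and 31.2 to 70.6 RPM, and their part was not tested.

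In culture, D11 germ cells were set against D5 germ cells. HSP70 genes were among the rises, and CCT subunits were among the falls. Of 74 genes tested 16 were higher and 13 lower at D11, or 13 and 19 after rescaling (26.2% and 20.4% of all genes), where without it 46.3% of all genes passed, 31.2% as higher and 15% as lower, and the median log2 change was 0.028 over the chaperones and 0.17 over all genes. In the HSP70 family 7 of 12 were higher and none lower (median 0.66), or 6 and 1 after rescaling. Hspa5 had 1068, 1018 and 832 RPM at D11, against 629, 519 and 576 RPM at D5 (0.75, SE 0.14, adjusted p = 0.00011 by limma). Hspa2 had 62.1, 47.8 and 44.6 RPM at D11, against 30.1, 20.6 and 30.7 RPM at D5 (0.91), and Hspa1a had 8.46, 3.62 and 7.496 RPM against 1.18, 0.658 and 0.868 RPM (1.93). Each of these groups lay apart from the other in all 3 libraries. Hspa12a (0.89), a distant HSP70 relative, was higher too, as were Dnajb2 (1.002), the ER J protein Dnajc16 (0.92) and Hsph1 (0.75). Hspb8, which works with Bag3 in the removal of damaged proteins, had 1.24, 7.45 and 2.25 RPM at D11 and 0.690, 0.395 and 0 RPM at D5 (1.57).

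Lower at D11 were 4 of 8 CCT subunits, or 5 after rescaling, such as Cct4 at 374, 366 and 323 RPM, against 498, 599 and 546 RPM at D5 (-0.62, adjusted p = 2.9e-05 by limma), and Cct7 (-0.63). Dnajb5 (-0.97), the small heat shock protein Hspb6 (-0.93), Dnajc24 (-0.84) and Dnajc8, a splicing-associated J protein (-0.76), were lower as well. D11 held more marker RNA of other cells than D5: granulosa markers summed to 341 to 671 RPM at D11 and 40.4 to 59.1 RPM at D5, stroma markers to 193 to 1874 RPM at D11 and 6.58 to 19.9 RPM at D5, and blood and immune markers to 30.2 to 432 RPM at D11 and 10.3 to 12.98 RPM at D5. Their part in the rises was not tested. With the 6 libraries of D5 and D11 fitted alone, the number of called chaperone genes was 5, and the share of all genes called in that fit is not given. Of the lists, heat-shock inducible genes had 5 of 16 higher and 3 lower, ER genes 6 of 21 and 2, mitochondrial genes 6 of 15 and 2, cochaperones 2 of 26 and 5, CCT partners 3 of 11 and 2, unfolded protein response factors 4 of 9 and 0, and heat shock factors 1 of 5 and 0. After rescaling the balance of the heat-shock inducible list turned to 3 higher and 5 lower and that of the mitochondrial genes to 2 and 4, and the ER genes had 4 and 3.

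Between D11 and D20 the labels of the cultured cells change to oocytes. Of the heat-shock inducible list 4 of 16 were higher and 9 lower at D20, or 5 and 5 after rescaling. CCT subunits, the mitochondrial chaperonin and many DNAJC genes were lower. Of 74 genes 12 were higher and 42 lower, where 77.6% of all genes passed, 22.5% as higher and 55.1% as lower. The median log2 change was -0.71 over the chaperones and -0.66 over all genes. After rescaling that of all genes was -0.17, which gave 25 higher and 30 lower, beside 34.4% and 40.3% of all genes. Dnajc11 had 630, 648 and 643 RPM at D20, against 85.7, 88.7 and 138 RPM at D11 (2.65, SE 0.15, adjusted p = 7.9e-14 by limma). Dnaja4 had 151, 145 and 168 against 34.9, 29.4 and 31.1 RPM (2.25), and its overlapping neighbour Wdr61 went the other way, at 26.3 to 30.7 RPM at D20 and 68.0 to 74.8 RPM at D11. Hsph1 had 1035, 852 and 973 RPM at D20, against 188, 198 and 351 RPM at D11 (2.01). Dnajb1 (1.58), Dnajb6 (1.28) and Hsp90aa1 (0.94) were also higher, and D11 replicate 3, with its higher Hsph1 and Dnajc11, still lay below every D20 library. For Dnajc11 the lack of overlap between D11 and D20 was a condition for being named.

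Lower at D20 was Cct6a, at 97.4, 120 and 102 RPM, against 522, 456 and 473 RPM at D11, a log2 change of -2.17 (SE 0.12, adjusted p = 2.5e-14 by limma). In all 7 of 8 CCT subunits were lower (median -1.16), or 6 after rescaling, when Cct5 was called higher, and Cct6a over Cct5 was 0.274 to 0.281 at D20 and 1.01 to 1.25 at D11. Hsp90ab1 had 1449, 1730 and 1415 RPM at D20, against 2809, 2816 and 3210 RPM at D11 (-0.95), so that Hsp90aa1 over Hsp90ab1 was 2.67 to 3.503 at D20 and 0.814 to 0.898 at D11. Hspd1 and Hspe1 were both lower by -1.30. Hspb11 had 3.33, 3.10 and 2.69 RPM at D20, against 35.98, 26.3 and 15.5 RPM at D11 (-2.66), Hspa2 had 11.54, 9.73 and 9.43 against 62.1, 47.8 and 44.6 RPM (-2.21), and Dnajc5g changed by -2.23. In the HSP70 family 7 of 12 were lower and Hspa12a was higher, and after rescaling 6 were lower and 4 higher.

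The genes that set D20 apart from D11 overlapped with those that set large oocytes apart from small ones at P6, in libraries shared by neither comparison. Of 18 genes lower in P6 small oocytes, 9 were higher at D20, which is 50% of the first list and 75% of the 12 higher at D20: Dnaja1, Dnaja4, Dnajb1, Dnajb2, Dnajb6, Dnajc11, Dnajc14, Hsp90aa1 and Hsph1. Of the 42 higher in small oocytes, 31 were lower at D20, 73.8% of each list. Over all genes, of those lower in P6 small oocytes 71.4% were higher at D20, 67% of the genes higher at D20, and of those higher in small oocytes 76.5% were lower at D20, 68.4% of the genes lower at D20. After rescaling the chaperones shared 17 genes, 65.4% of the first list and 68% of that of D20, beside 74.4% and 75% over all genes, and 15 genes, 68.2% and 50%, beside 68.7% and 56%. The shares of the chaperones thus lay near or below those of all genes, apart from the 75% and 73.8% of the D20 lists before rescaling, against 67% and 68.4%; no test of the difference was made. In the other sense, Dnajc21 was higher in both lists, and Dnajb4 and Hspa5 were lower in both. Granulosa markers summed to 52.5 to 61.2 RPM at D20 and 341 to 671 RPM at D11, and stroma markers to 1.63 to 3.19 and 193 to 1874 RPM, and their part was not tested. Of the other lists, ER genes had 3 of 21 higher and 13 lower at D20, mitochondrial genes 1 of 15 and 8, cochaperones 5 of 26 and 18, CCT partners 2 of 11 and 4, unfolded protein response factors 1 of 9 and 4, and heat shock factors 1 of 5 and 1. After rescaling the excess of falls was gone in most of them, with ER genes at 8 and 8, mitochondrial genes at 7 and 6, cochaperones at 7 and 10, CCT partners at 5 and 2 and unfolded protein response factors at 5 and 2.

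**Figure D4:**
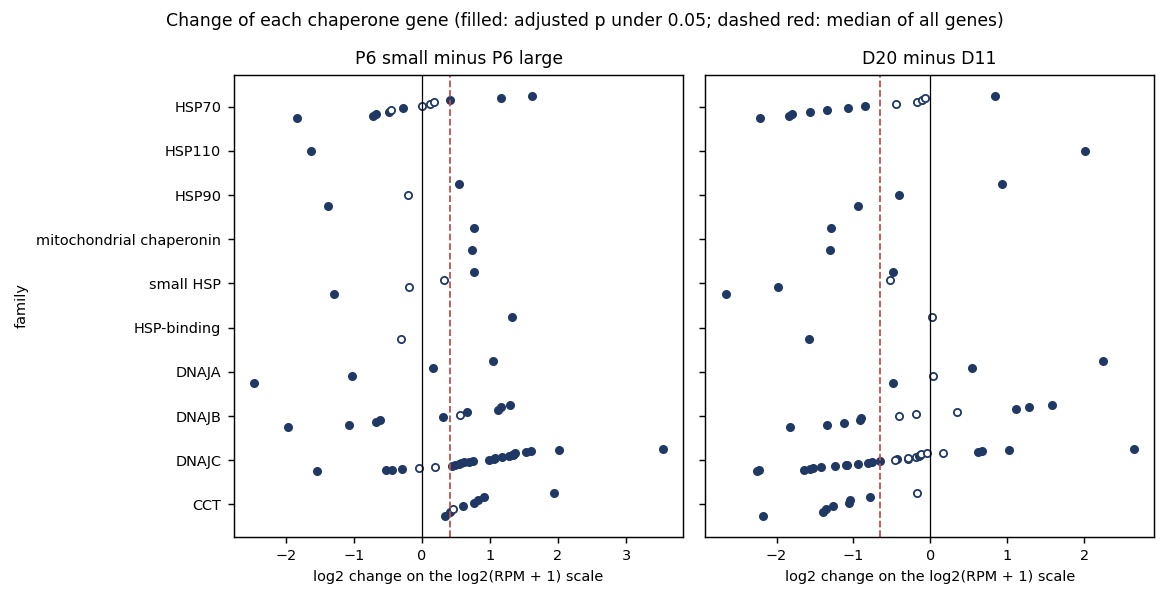
Log2 change of each chaperone gene on the log2(RPM + 1) scale, by family, for P6 small minus P6 large oocytes (left) and D20 minus D11 (right), with filled dots for adjusted p under 0.05 by limma and a dashed red line at the median of all genes, 0.41 and -0.66. Hsph1 is at -1.63 on the left and 2.01 on the right, and 7 of 8 CCT genes are called above 0 on the left and 7 below 0 on the right, of which 2 and 6 stay so after rescaling.

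D20 oocytes were then set against P6 large oocytes of the ovary, from which they differ in strain, origin and culture together, so that these cannot be told apart. Most chaperone genes were not called. Of 74 genes 9 were higher and 5 lower in culture, or 8 and 10 after rescaling (8.68% and 7.49% of all genes), where without it 14.2% of all genes passed, 9.62% as higher and 4.59% as lower. Hsph1 (-0.30, adjusted p = 0.16 by limma) and Hsp90aa1 (-0.28, adjusted p = 0.12) were not called, nor was any CCT subunit. Dnajc11 had 630, 648 and 643 RPM at D20, against 423, 450 and 477 RPM in P6 large oocytes (0.51, SE 0.12, adjusted p = 0.002). Hspb1 had 10.2, 9.46 and 9.73 RPM at D20, against 2.99, 3.66 and 3.42 RPM (1.31), and Dnajc18 had 13.9, 13.7 and 18.04 against 5.60, 9.06 and 7.68 RPM (0.95). Dnajc9, a J protein that chaperones histones (0.50), and Dnajc5, the cysteine string protein of secretory vesicles (0.31), were higher by less. Lower in culture were Hspa2, at 11.54, 9.73 and 9.43 against 16.6, 20.1 and 19.1 RPM (-0.80), Dnajc15 (-0.70), Dnajc3 (-0.60), Hsp90b1 (-0.43) and Hsp90ab1 (-0.35). The libraries of the groups did not overlap for any of these called genes. For Dnajc11, Dnajc18, Dnajc9, Dnajc5 and Dnajc15 this was a condition for being named. The count of calls was 7 without D20 replicate 3 and 9 without P6 large replicate 1, and the shares of all genes called in these fits are not given. Of the lists, ER genes had 0 of 21 higher and 4 lower, heat-shock inducible genes 3 of 16 and 1 (1 and 3 after rescaling), mitochondrial genes 1 of 15 and 1, cochaperones 3 of 26 and 1, CCT partners and unfolded protein response factors 0 and 0, and heat shock factors 1 of 5 and 1. Granulosa markers summed to 52.5 to 61.2 RPM at D20 and 20.3 to 25.3 RPM in P6 large oocytes, and their part was not tested. Of these sums Gata4 alone averaged 45.6 RPM at D20 and 14.7 RPM in P6 large oocytes, and the other listed markers went both ways.

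At D21 the question was how low oxygen and the Foxo3dNES transgene act on cultured oocytes. In WT oocytes a few cytosolic chaperones were lower in hypoxia and 3 J proteins were higher. Of 70 chaperone genes tested 5 were lower and 3 higher in WT hypoxia, or 10 and 1 after rescaling (10% and 11.2% of all genes), where without it 22.5% of all genes passed, 6.55% as lower and 15.9% as higher, and the median log2 change was 0.083 over the chaperones and 0.14 over all genes. With 2 libraries per group the calls rest on few values, and without either of the hypoxia libraries none of the 8 was called, while 23 genes were called without WT normoxia replicate 1, when 41.5% of all genes passed. Normoxia libraries held more granulosa marker RNA: the sums were 27.1 to 37.7 RPM in WT hypoxia and 120 to 289 RPM in WT normoxia, and 25.1 to 40.0 RPM in Tg hypoxia and 141 to 214 RPM in Tg normoxia. Blood and immune markers summed to 2.58 and 76.1 RPM in the 2 WT normoxia libraries, and to 1.75 and 3.25 RPM in those of WT hypoxia. The part of these markers in the results was not tested.

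Dnajb4, an HSP70 partner, had 8.80 and 9.13 RPM in WT hypoxia, against 47.2 and 28.6 RPM in WT normoxia, a log2 change of -1.92 (SE 0.26, adjusted p = 0.0062 by limma). Hspb1 had 2.73 and 4.26 RPM in WT hypoxia, against 16.1 and 14.46 RPM in WT normoxia (-1.88, SE 0.43, adjusted p = 0.017). Hspa8 had 1367 and 1563 RPM in WT hypoxia, against 2467 and 2385 RPM in WT normoxia (-0.73, SE 0.16, adjusted p = 0.017). None of these pairs of libraries overlapped. Dnaja1 had 266 and 281 against 448 and 390 RPM (-0.61, adjusted p = 0.017), and Hspb11, near the lower end of its range, had 2.30 and 2.30 against 3.71 and 6.61 RPM (-0.86, adjusted p = 0.048). The 5 lower genes were called with the same sign by limma with and without rescaling, by edgeR and by DESeq2, which called 25.4% and 32.8% of all genes. Hsp90aa1 had 2463 and 3064 against 3871 and 4400 RPM (-0.59, adjusted p = 0.07), and Dnajb1 changed by -0.60 (adjusted p = 0.075), neither of them called.

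Higher in WT hypoxia were Dnaja3, a mitochondrial J protein, at 167 and 158 RPM, against 102 and 101 RPM in WT normoxia (0.67, adjusted p = 0.015 by limma), Dnajc10 at 166 and 155 against 120 and 93.1 RPM (0.59, adjusted p = 0.026), and Dnajc2, a ribosome-associated J protein, at 202 and 176 against 121 and 139 RPM (0.54, adjusted p = 0.025). Their libraries did not overlap either, which for Dnajc2 was a condition for being named. After rescaling Dnajc10 was still called (0.39, adjusted p = 0.042), and Dnaja3 (0.46, adjusted p = 0.058) and Dnajc2 (0.33, adjusted p = 0.14) were not. Of the lists, heat-shock inducible genes had 0 of 15 higher and 3 lower, namely Hspa8, Hspb1 and Dnaja1, with a median of -0.54, ER genes 3 of 21 and 1, mitochondrial genes 3 of 15 and 0, cochaperones 7 of 26 and 3, CCT partners 0 of 10 and 2, unfolded protein response factors 1 of 9 and 2, and heat shock factors 0 of 5 and 0. After rescaling the heat-shock inducible list had 0 and 5, the ER genes 2 and 3, the mitochondrial genes 0 and 1 and the cochaperones 3 and 4.

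In Tg oocytes limma called 0 of the 70 chaperone genes between hypoxia and normoxia, while edgeR called 1 and DESeq2 8. Of all genes 1.02% passed by limma, 2.54% by edgeR and 7.25% by DESeq2. At an unadjusted p under 0.05 by limma were 16 of the 70 chaperone genes, beside 2018 of all 14392 genes tested. Dnajb4 had 12.2 and 10.2 RPM in Tg hypoxia, against 31.3 and 22.6 RPM in Tg normoxia, a log2 change of -1.18 (SE 0.26, adjusted p = 0.067 by limma) that was called after rescaling (adjusted p = 0.03), where 1.53% of all genes passed. Hspa8 had 1375 and 1167 RPM in Tg hypoxia, against 1794 and 1981 RPM in Tg normoxia (-0.57, adjusted p = 0.15), and Hspb1 had 3.29 and 3.30 against 7.71 and 7.13 RPM (-0.97, adjusted p = 0.35). Of the 8 genes called in WT, 7 had the same sign in Tg, the exception being Hspb11 (0.18). Signs were not counted over all genes called in WT, so this count cannot be read as a trait of the chaperones. The difference of the hypoxia effect between Tg and WT was tested itself and gave 0 calls, where 0% of all genes passed. At an unadjusted p under 0.05 it had 1 chaperone gene, beside 869 of all 14392 genes. Without WT normoxia replicate 1 it gave 4 calls, where 16.1% of all genes passed. For Dnajb4 that difference was 0.74 (SE 0.37, adjusted p = 0.65), and for Hspa8 0.16 (SE 0.23, adjusted p = 0.8), so an unequal effect was not shown and an equal one was not shown either.

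Tg and WT oocytes were also compared at each oxygen level. In hypoxia limma called 0 of 70 chaperone genes, where 0.00695% of all genes passed. At an unadjusted p under 0.05 it had 0 of the 70, beside 68 of all 14392 genes. In normoxia limma called 0, where again 0.00695% of all genes passed, and DESeq2 called 5 as lower in Tg (5.04% of all genes). At an unadjusted p under 0.05 limma had 11 chaperone genes in normoxia, beside 3454 of all 14392 genes. Without WT normoxia replicate 1 limma called 13, where 35.9% of all genes passed. None of the lists had a called gene in these comparisons or in the Tg comparison of hypoxia with normoxia. The Hsp90aa1 over Hsp90ab1 ratio was 1.02 and 1.25 in Tg hypoxia and 1.31 and 1.76 in Tg normoxia, and 1.16 and 1.44 in WT hypoxia and 1.92 and 2.89 in WT normoxia, lower in hypoxia in both genotypes without overlap.

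**Figure D5:**
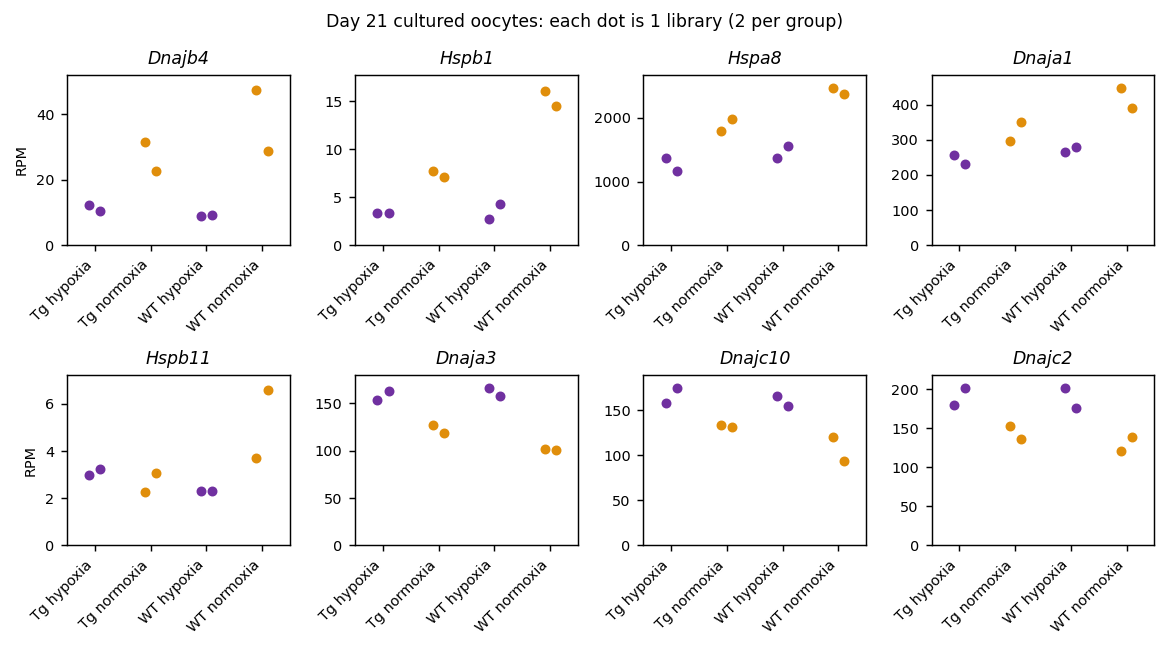
RPM of the 8 chaperone genes called between hypoxia and normoxia in WT oocytes at D21, each dot a library (2 per group), hypoxia in purple and normoxia in orange, for Tg and WT oocytes. Dnajb4, Hspb1, Hspa8 and Dnaja1 are lower in hypoxia in both genotypes, with only the WT differences called by limma on unscaled RPM (after rescaling Dnajb4 was called in Tg too), and Dnaja3, Dnajc10 and Dnajc2 are higher.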

How the data were processed

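The authors deposited RPM per gene and library, per the file's own name, made from poly(A)-selected, directional libraries per the labels' protocols. The submitters' processing notes name TopHat2, Bowtie2 2.0.13, featureCounts 1.5.1, R 3.4.4 and the build mm10, while annotation and strand setting are not given in the sources used here. RPM are shares of a library, so a shift in many genes moves the rest. All 66 libraries were used. Genes with a mean of 1 RPM in at least 1 group of a fit were tested, two-sided, on log2(RPM + 1) values by the trend method of limma 3.58.1 in R 4.3.3, with 1 mean per group, with Benjamini-Hochberg adjustment over all genes and a threshold of 0.05. Fold changes on this scale understate those of low genes. The in vivo fit and the D5 to D20 fit had 18 residual degrees of freedom each, their joint fit 36 and the D21 fit 6. Whole reads, recovered from the deposited RPM to within 0.01 of a read for all values of 65 libraries and 99.9958% of those of P6 large replicate 1, went into edgeR 4.0.16 and DESeq2 1.42.0 as alternatives. Other alternatives were size factors, a pseudocount of 0.5, no filter or 5 RPM, the compared groups alone, a replicate block and leaving out each library. The fits were tested on simulated counts. The labels call replicates biological without naming animals or cultures, so p-values measure the spread between these libraries. Floors of 3 reads cover counting error only, as no molecular identifiers were used.

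The genes and lists were chosen with earlier results of these data known. The text names a panel by role and, per comparison, up to 4 largest called rises and falls without overlap and with a group mean of 10 RPM or more. Per kb values use exon lengths of GENCODE vM21 and promoter windows RefSeq GRCm38.p6.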

Additional observations from a re-analysis of the deposited data

Results flagged for a closer look

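For 6 of the chaperone genes tested the difference between small and large oocytes was itself different at P6 and at P4 by limma. That share was near the 8.52% of all genes tested that passed. The contrast was fitted on unscaled RPM alone and was not repeated after rescaling. The values are the log2 change of small against large at P6 minus that at P4. Dnajc15 gave 1.01 (SE 0.24, adjusted p = 0.01), with small oocytes far higher at both ages and more so at P6. Cct6a gave 0.43 (SE 0.099, adjusted p = 0.009) and Dnajc10 gave 0.49 (SE 0.13, adjusted p = 0.023), again with the wider gap at P6. Dnajc11 gave -0.36 (SE 0.10, adjusted p = 0.032) and Dnajb4 gave -0.67 (SE 0.20, adjusted p = 0.04), both lower in small oocytes and further so at P6. Hspa1b gave -1.80 (SE 0.54, adjusted p = 0.039), and it rests on 0.239 to 0.895 RPM in P6 small libraries and on P4 groups that overlap.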

How the results depend on the processing

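Called chaperone genes numbered 59 to 61 at P6 when each library was left out in turn, 53 to 60 at P4, 45 to 52 for E18.5 against E14.5, 43 to 47 for P3 against E18.5, 25 to 30 for D11 against D5 and 51 to 55 for D20 against D11. Between D20 and P6 large oocytes the range was 7 to 15, and the count was 27 with those groups fitted alone. For D11 against D5 fitted alone it was 5. Such fits have fewer residual degrees of freedom, and the cause of these counts was not tested. For the counts given so far in this paragraph the shares of all genes called in the same fits are not given, so they cannot be read as a trait of the chaperones. In WT hypoxia against normoxia edgeR called 13 and DESeq2 16, and leaving out a library gave 0 to 23. In Tg hypoxia against normoxia size factors and edgeR each called 1 and DESeq2 8. In Tg against WT normoxia DESeq2 called 5 and the range was 0 to 13, and for the interaction it was 0 to 4.

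Of 211 pairs of a named gene and a comparison, 137 kept direction and call in every setting, 66 lost the call in at least 1 and 14 turned sign in at least 1, all of them under another scaling. With size factors, edgeR and DESeq2 the log2 changes at P6 were -0.19, -0.12 and -0.19 for Cct3, -0.27, -0.20 and -0.27 for Cct5, -0.46, -0.39 and -0.46 for Dnaja2, -0.30, -0.24 and -0.31 for Dnajb11, -0.074, -0.0044 and -0.074 for Hsp90ab1 and -0.19, -0.12 and -0.19 for Hspa14. Those at P4 were -0.11, -0.062 and -0.12 for Cct5 and -0.0598, -0.0044 and -0.058 for Hspd1, and those for D20 against D11 were 0.15, 0.18 and 0.14 for Dnaja3 and 0.24, 0.28 and 0.23 for Hsp90b1. With size factors and DESeq2 alone, signs turned to -0.0063 and -0.0065 for Cct2 at P6, and at P4 to -0.014 and -0.011 for Cct3, -0.038 and -0.039 for Hsp90ab1 and -0.033 and -0.032 for Hspe1.

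Replicate numbers were not taken to pair the libraries: in no comparison of 3 against 3 did every same-numbered pair deviate together with a correlation over 0.1. At D21, with 2 per group, the correlation was 0.148 for Tg against WT normoxia and -0.182 to -0.275 in the other comparisons. With a replicate block the counts were 60 at P6, 59 at P4, 49 for E18.5, 48 for P3, 28 for D11, 14 between D20 and P6 large oocytes, 55 for D20 against D11, 7 in WT hypoxia (7 with crossed numbers as well, an alternative added after seeing the data) and 0 in the other D21 comparisons. The shares of all genes called with the block are not given, so the counts with it cannot be read as a trait of the chaperones. Depth limits genes near 3 reads, 0.129 to 0.619 RPM.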

Other observations

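Dnajc15 stood far higher in all 12 D21 libraries than in the D20 libraries of the culture course. It had 357 and 414 RPM in Tg hypoxia, 318 and 275 RPM in Tg normoxia, 380 and 340 RPM in WT hypoxia and 271 and 460 RPM in WT normoxia, beside 15.2, 20.7 and 15.7 RPM at D20. The 4 D21 libraries of no stated oxygen had 263 and 277 RPM in Tg and 325 and 186 RPM in WT. These levels overlap those of P6 small oocytes (311 to 377 RPM). They lie above those of P3 oocytes (222 to 245 RPM), except for the WT library of no stated oxygen at 186 RPM, which lies below them. D20 and D21 libraries were fitted apart, and the difference was not tested. Hsp90aa1 over Hsp90ab1 averaged 1.14 to 2.40 in the D21 groups and 3.14 at D20.

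The inducible pair Hspa1a and Hspa1b was highest in the Tg libraries of no stated oxygen, at 16.0 and 28.1 RPM for Hspa1a and 23.9 and 36.8 RPM for Hspa1b. The same libraries had the largest granulosa marker sums of the D21 set, 494 and 711 RPM, against 25.1 to 40.0 RPM in Tg hypoxia and 141 to 214 RPM in Tg normoxia. Hspa1a was read in 0 of the 3 D13 libraries, which allows up to 3 reads in each.

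In the culture course the Hsph1 over Hspa4 ratio averaged 1.59 at D20 and 0.371 at D11, and in the ovary it stood at 1.01 in small and 1.88 in large oocytes at P6, so that D11 germ cells lay below the small oocytes of the ovary.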
